A study of Mus musculus with 30 samples.

Results

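The sites described here are stretches of the mouse genome where E2A was found in EBF-/- pre-pro-B cells and was no longer found in RAG1-/- pro-B cells. They are the peaks of the EBF-/- E2A list that overlapped, by 1 base or more, neither a peak of the RAG1-/- E2A list nor a peak of a mock immunoprecipitation. Of 4531 EBF-/- E2A peaks, 2457 (54.2%) met this rule and are called lost sites. Another 1986 peaks overlapped a RAG1-/- E2A peak and are called kept sites, and the remaining 88 overlapped the mock list. RAG1-/- cells had 11846 E2A peaks, of which 9793 lay at neither an EBF-/- E2A peak nor a mock peak and are called gained sites. The deposited data hold 323966 peaks in 24 lists and 6 array samples.

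E2A, encoded by Tcf3, is a basic helix-loop-helix transcription factor that binds a short motif, the E-box, as a dimer. It is needed to start the B cell programme, where it acts ahead of EBF1, and it is also active in lymphoid progenitors and early T cells. Id proteins such as Id3 pair with E proteins and keep them off DNA, and Notch signalling favours the T cell fate over the B cell fate. H3K4me2 and H3K4me1 mark promoters and enhancers, H3K4me3 marks active promoters, acetylated H3 (H3K9/14ac) accompanies active elements, and CTCF binds insulators and loop anchors.

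All cells of the array came from the C57BL/6 strain. RAG1-/- pro-B cells, which express the B cell factors but cannot cut antigen receptor genes, were taken from bone marrow by their B220 marker and grown for 10 d with SCF and IL-7, and the protocol names no stromal layer for them. EBF-/- pre-pro-B cells, which lack EBF1, and E2A-/- pre-pro-B cells were kept on the S17 stromal line with 3 factors, FLT3 ligand, SCF and IL-7. Wherever RAG1-/- cells are compared, genotype and culture cannot be told apart. E47-ER joins an E2A protein to the ligand-binding domain of the estrogen receptor, which tamoxifen (1 µM, for 1 or 6 h after 21 h in culture) brings into action. It was expressed in E2A-/- cells and in A12, a T cell line without E2A. Each peak list came from 1 library, so shares of sites are descriptions of those libraries and no test between genotypes was possible. Their 95% intervals (exact binomial) treat sites as independent and cover counting error only. RNA was measured on arrays in 2 samples each of RAG1-/-, EBF-/- and E2A-/- cells. Nothing in the labels says that these were separate animals or cultures, so p-values measure the spread between these samples, which may be technical. Fewer cells of a type and less RNA per cell cannot be told apart in such bulk samples.

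The labels were checked on RNA first. Tcf3 had log2 signals of 15.04 and 14.73 in RAG1-/- cells, 13.42 and 13.41 in EBF-/- cells, and 10.80 and 9.45 in E2A-/- cells. The E2A-/- samples were lowest, but Tcf3 was still well above background in both. Ebf1 and Rag1 were also well above background in the cells that lack the respective protein. The sources used here do not say where the probes of Tcf3, Ebf1 and Rag1 lie relative to the deleted parts. Ebf1 and Rag1 therefore check nothing, and for Tcf3 only the order of the groups can be read. Genes of the pre-B receptor, the first receptor of B cell precursors, separated the stages: 12 of 14 listed genes rose in RAG1-/- against EBF-/- cells and 1 fell. Over this list the mean log2 signal was 13.71 and 13.56 in RAG1-/- cells and 7.20 and 7.29 in EBF-/- cells. T lineage genes ran the other way, at 7.75 and 7.92 in RAG1-/- cells and 10.41 and 10.30 in EBF-/- cells. These are means over 13 tested genes, Rag1 among them. None of the 14 pre-B receptor genes was the nearest gene of a lost site, 2 were nearest to a kept site and 12 to a gained site. For comparison, of the 12444 genes tested further on, 1601 were nearest to a lost, 1251 to a kept and 3949 to a gained site. RAG1-/- replicate 2 had higher myeloid and mast cell signals than replicate 1. The means were 10.21 and 8.30 over 10 myeloid genes and 8.85 and 5.36 over 2 mast cell genes. E2A-/- replicate 1 had higher B cell signals than E2A-/- replicate 2. Its mean was 10.04 against 7.25 over the pre-B receptor list, and 10.22 against 8.11 over 20 B lineage genes. The part of these signals in the results below was not tested.

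A genome of the build used for the peaks (mm8) was not used here, so the bases of the sites themselves are not printed. Promoters of the genes nearest to lost sites are shown instead, because these genes gave the largest RNA differences, described further on. Among the 12 such genes with the largest fall of RNA in RAG1-/- against EBF-/- cells, 10 had a single transcription start in the RefSeq table for GRCm38.p6. The 250 bases before each start were searched on both strands for the E-boxes CAGCTG and CAGGTG, the second of which reads CACCTG on the other strand. Of the 10 promoters, 4 held 1 match each, against 9113 of 32851 promoter windows of this length (27.7%). They belong to Ccr9, a chemokine receptor that guides lymphocytes to thymus and gut, Slc27a2, a fatty acid transporter, Cd247, the zeta chain of the T cell receptor complex, and Alpk3, an atypical protein kinase known from heart muscle. Their windows are chr9:123766961-123767210 (plus strand), chr2:126552774-126553023 (plus strand), chr1:165788431-165788680 (plus strand) and chr7:81057350-81057599 (plus strand). They are written 5′ to 3′ with the E-box in capitals, and no match overlapped another. They are promoters, not the lost sites, and a match describes letters only.
Ccr9: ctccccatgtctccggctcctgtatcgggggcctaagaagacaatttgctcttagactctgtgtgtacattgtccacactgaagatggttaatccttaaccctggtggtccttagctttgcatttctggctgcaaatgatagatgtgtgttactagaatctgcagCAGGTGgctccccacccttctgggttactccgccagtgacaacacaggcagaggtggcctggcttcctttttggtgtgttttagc
Slc27a2: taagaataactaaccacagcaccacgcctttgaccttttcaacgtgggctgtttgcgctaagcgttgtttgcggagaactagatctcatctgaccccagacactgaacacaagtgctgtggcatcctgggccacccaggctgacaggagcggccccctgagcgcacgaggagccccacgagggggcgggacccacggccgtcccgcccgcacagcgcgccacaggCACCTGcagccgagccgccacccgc
Cd247: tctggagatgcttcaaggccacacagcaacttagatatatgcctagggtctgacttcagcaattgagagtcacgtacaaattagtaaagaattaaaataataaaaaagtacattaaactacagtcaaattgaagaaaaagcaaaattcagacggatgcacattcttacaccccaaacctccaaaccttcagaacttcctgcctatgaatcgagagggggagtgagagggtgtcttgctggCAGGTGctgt
Alpk3: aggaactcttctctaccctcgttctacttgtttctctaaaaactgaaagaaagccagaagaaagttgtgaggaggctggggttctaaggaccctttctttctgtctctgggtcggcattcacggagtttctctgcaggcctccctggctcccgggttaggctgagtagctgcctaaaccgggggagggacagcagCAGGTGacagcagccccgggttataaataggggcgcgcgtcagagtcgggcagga
The match began 85 bases before the start in Ccr9, 25 in Slc27a2, 10 in Cd247 and 55 in Alpk3. The promoters of Nrp2, Itgax, Nav1, Enah, Fyb and Flt3 held neither motif in this window.

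Lost sites had low peak scores. The score is a whole number that the authors gave each peak, and the sources used here do not say what it measures. The median score in the EBF-/- E2A list was 13 at lost sites (quartiles 11 and 15, highest 70) and 16 at kept sites (quartiles 13 and 23, highest 129). Of peaks with the lowest score, 11, 74.2% were lost, and the share was 68.2% at scores of 12 to 13, 53.6% at 14 to 18, 34.2% at 19 to 29 and 14.7% at 30 or more. Both score and loss belong to the lists that chose the sites, so these values describe the choice. The distance to the nearest RAG1-/- E2A peak had a median of 26631 bases, and 257 lost sites (10.5%) lay within 1000 bases of one. Just outside the rule's edge, 29 kept sites overlapped a RAG1-/- peak by under 50 bases and had a median score of 14. Just inside it, 41 lost sites lay within 50 bases of a RAG1-/- peak and had a median score of 13. Lost sites were spread over all chromosomes except Y, where both EBF-/- peaks were kept, with 48.9% (chromosome 17) to 64.2% (chromosome 18) of peaks lost. Few were close together: 255 (10.4%) had another lost site within 10000 bases.

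The 10 lost sites of highest score included sites beside histone genes and sites far from the nearest probe. The highest (score 70) lay at chr2:22440760-22440959 in mm8, 12947 bases from the probe of Myo3a, a myosin known from the inner ear, and carried H3K4me2, H3K4me3 and acetylation in EBF-/- cells and none of these in RAG1-/- cells. The next (score 66) lay at chrX:165341955-165342154 near Mid1, a microtubule-associated ubiquitin ligase, 150 bases from a RAG1-/- E2A peak, and carried all 3 marks in both genotypes. The third (score 65), at chr13:23771127-23771326, lay 287 bases from the probe of the linker histone gene H1f1. Another (score 47), at chr13:21787750-21787949, lay 301 bases from that of H1f5 and 531 bases from a RAG1-/- E2A peak. The site of score 60 at chr8:125586813-125587012 was 1 of 4 lost sites nearest to Cbfa2t3, a corepressor of blood progenitors. It lay 988 bases from a RAG1-/- E2A peak and carried E47-ER in E2A-/- cells at both times. The site of score 50 at chr5:139188313-139188512 was nearest to Pdgfa, a growth factor, and carried E47-ER in all 3 E47-ER lists and no histone mark.

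Many lost sites carried promoter marks, and they did so in both genotypes. H3K4me3 overlapped 36.4% of lost sites in RAG1-/- cells and 34.3% in EBF-/- cells, against 26.4% and 16.1% of kept sites and 15.5% and 8.64% of gained sites in the same order of genotypes. Of 843 lost sites with H3K4me3 in EBF-/- cells, 90.9% had it in RAG1-/- cells too. E2A was thus no longer listed there while the mark was. The same share was 87.2% for 320 such kept sites and 87.2% for 846 such gained sites. The excess of H3K4me3 at lost over kept sites varied with score. In EBF-/- cells H3K4me3 overlapped 41.2% of lost and 22.3% of kept sites at a score of 11. At scores of 19 to 29 the shares were 14.8% and 15.4%, and in every other score range lost sites were higher. Acetylated H3 overlapped 39.8% of lost sites in RAG1-/- cells and 47.1% in EBF-/- cells. At kept sites these shares were 30.4% and 34.5%. The 2 genotypes' lists differ in length, 13205 and 9064 peaks for H3K4me3 and 13267 and 14331 for acetylation in RAG1-/- and EBF-/- cells, and shares move with list length. H3K27me3, a repressive mark, overlapped 10 lost sites in RAG1-/- cells and 3 in EBF-/- cells.

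H3K4me2 overlapped a smaller share of lost sites in RAG1-/- than in EBF-/- cells. It overlapped 30.4% of lost sites in RAG1-/- cells (95% interval 28.6 to 32.3) and 40.7% in EBF-/- cells (38.8 to 42.7), although the lists were of nearly equal length, with 26549 and 27025 peaks. At kept sites the shares were 45.6% and 47.1%, and at gained sites 42.3% and 24.7%. Of 1001 lost sites with H3K4me2 in EBF-/- cells, 52.5% had it in RAG1-/- cells, against 72.1% of 936 such kept sites. The order of the genotypes differed with H3K4me3. At the 971 lost sites with H3K4me3 in either genotype, H3K4me2 overlapped 44.8% in RAG1-/- cells and 36.05% in EBF-/- cells. At the 1486 lost sites without H3K4me3 in either genotype, H3K4me2 overlapped 21.0% in RAG1-/- cells and 43.8% in EBF-/- cells: 69 sites had it only in RAG1-/- cells, 408 only in EBF-/- cells and 243 in both. At the 1421 kept sites without H3K4me3 the shares were 42.6% and 45.8%. Acetylation at these sites gave 7.54% in RAG1-/- and 18.6% in EBF-/- cells for lost sites, and 12.9% and 18.1% for kept sites. The gap also varied with score. At a score of 11, H3K4me2 in RAG1-/- and EBF-/- cells overlapped 36.4% and 40.2% of lost sites and 51.7% and 56.3% of kept sites, so the gap was no wider at lost than at kept sites. At scores of 19 to 29 the shares were 19.7% and 42.8% of lost sites and 43.5% and 43.7% of kept sites. In the profile of H3K4me2 peak centres, lost sites had 13.7 and 12.9 centres per 100 sites in the 2 bins beside the site centre in RAG1-/- cells and 17.9 and 18.0 in EBF-/- cells.

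**Figure D1:**
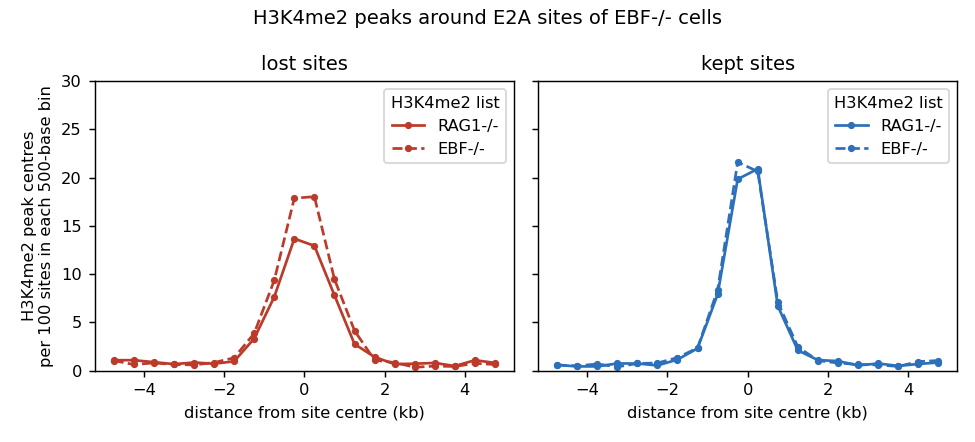
H3K4me2 peak centres per 100 sites in bins of 500 bases (vertical axis) against distance from the site centre in kb (horizontal axis), for lost sites (left) and kept sites (right), with RAG1-/- cells as solid and EBF-/- cells as dashed lines. At lost sites the RAG1-/- line peaks at 13.7 and the EBF-/- line at 18.0, whereas at kept sites the peaks are 20.9 and 21.6.

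H3K4me1 gave no clear order at lost sites. It overlapped 12.25% of them in RAG1-/- cells and 7.37% in EBF-/- cells, from lists of 23054 and 7544 peaks, so list length and genotype cannot be told apart for this mark. At kept sites H3K4me1 was at 23.1% in RAG1-/- cells, against 7.75% in EBF-/- cells, and at gained sites at 29.2% against 5.59%. Of 181 lost sites with H3K4me1 in EBF-/- cells, 29.3% had it in RAG1-/- cells too, against 57.8% of 154 such kept sites. In E2A-/- cells, H3K4me1 overlapped 7.94% of lost sites after 6 h of E47-ER, 9.24% after 1 h, and 10.5% with bHLH-ER, a form without the transactivation domains, from lists of 11169, 18155 and 17146 peaks.

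Other B lineage factors of RAG1-/- cells were scarce at lost sites. EBF1 overlapped 13 of them (0.529%), against 3.63% of kept and 5.94% of gained sites. FOXO1, a factor that acts with E2A and EBF1 at the pro-B stage, overlapped 36 lost sites (1.47%), against 8.01% of kept and 5.10% of gained sites. CTCF overlapped 6.84% of lost, 8.01% of kept and 12.65% of gained sites. Within the lost sites CTCF was listed at 11.02% of the 971 with H3K4me3 and at 4.46% of the 740 without H3K4me3 that also had none of the other histone marks in EBF-/- cells. The EBF1, FOXO1 and CTCF lists held 1402, 1575 and 38838 peaks.

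**Figure D2:**
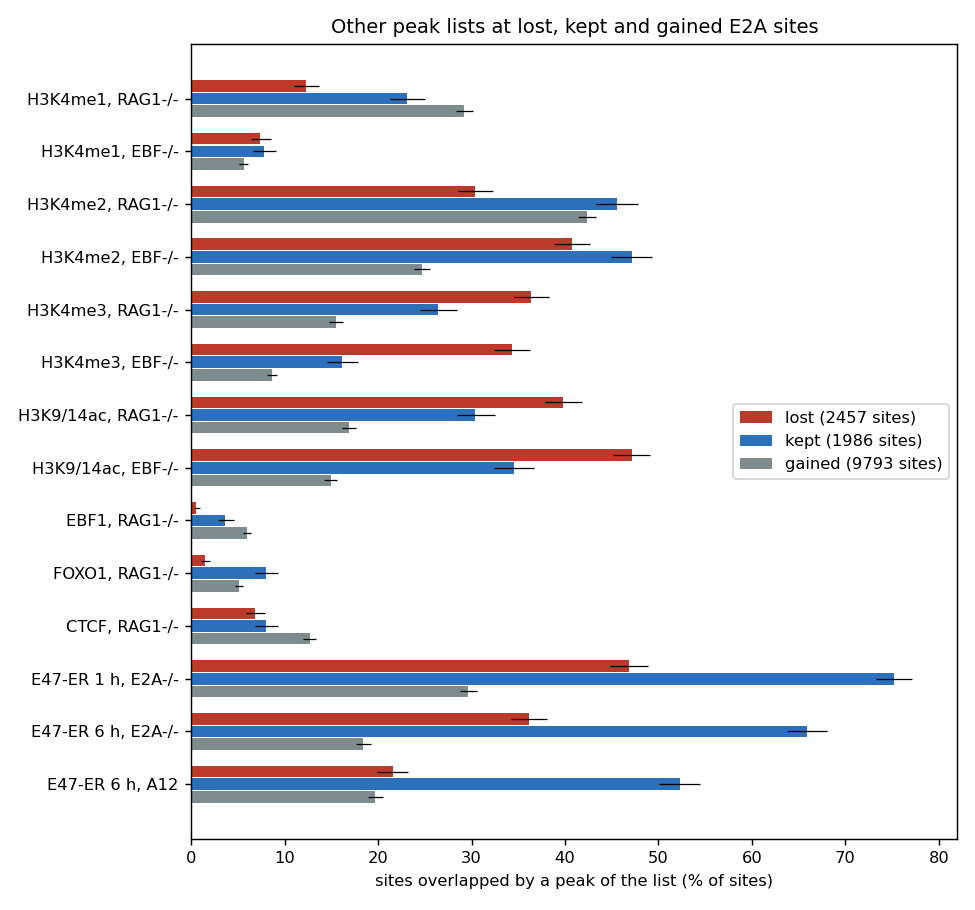
Share of lost, kept and gained E2A sites (percent, horizontal axis) overlapped by a peak of each other list (rows), with exact binomial 95% intervals as black lines. Lost sites exceed kept sites for H3K4me3 and H3K9/14ac in both genotypes and lie below them for H3K4me2, EBF1, FOXO1 and all 3 E47-ER lists.

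Many lost sites carried E47-ER in cells without E2A that expressed it, and no E47-ER list came from RAG1-/- cells. In E2A-/- cells, E47-ER overlapped 46.85% of lost sites at 1 h and 36.1% (34.2 to 38.1) at 6 h, against 75.2% and 65.9% of kept and 29.6% and 18.4% of gained sites. The lists of 1 h and 6 h held 26792 and 15386 peaks, so no change with time can be read from these shares. In A12 cells, E47-ER overlapped 21.5% of lost, 52.3% of kept and 19.7% of gained sites at 6 h. Taking the 3 lists together, 1272 lost sites (51.8%) and 81.7% of kept sites had E47-ER in at least 1. All 3 lists shared 399 lost sites, and 414 more had E47-ER in E2A-/- cells at both times and not in A12. The difference between lost and kept sites was present in every score range. E47-ER at 6 h overlapped 25.6% of lost and 47.9% of kept sites at a score of 11, and 65.3% and 85.9% at scores of 30 or more, where only 49 sites were lost.

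**Figure D3:**
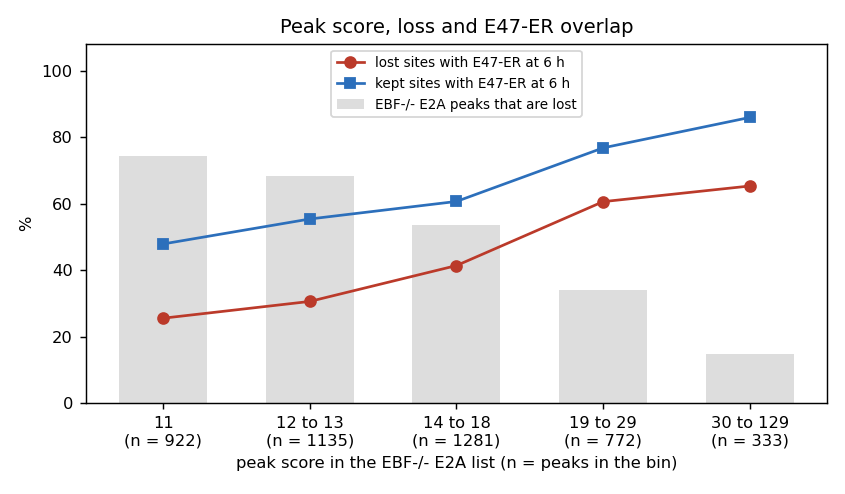
Peaks of the EBF-/- E2A list binned by score (horizontal axis, with the number of peaks outside the mock list), with grey bars for the share that is lost, red circles for the share of lost and blue squares for the share of kept sites that E47-ER overlaps at 6 h in E2A-/- cells (percent, vertical axis). The bars are highest, at 74.2%, in the lowest bin and lowest, at 14.7%, in the highest bin, while both E47-ER shares climb and lost sites stay below kept sites in each bin.

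Chromatin marks divided the lost sites into classes, and the class with H3K4me3 had the smallest share with E47-ER. The 971 with H3K4me3 in either genotype (39.5%) had a median score of 12 and were acetylated at 89.2% in RAG1-/- and 90.8% in EBF-/- cells. E47-ER overlapped 27.6% of them at 1 h and 16.9% at 6 h. Another 746 (30.4%) had no H3K4me3 and carried H3K4me1, H3K4me2 or acetylation in EBF-/- cells, and 60.9% and 48.1% of these had E47-ER at 1 h and 6 h. The other 740 (30.1%) had none of these marks in EBF-/- cells and no H3K4me3, and their shares with E47-ER were 58.0% and 49.3%. E47-ER at 6 h overlapped 53.5% of the 565 kept sites with H3K4me3, whose median score was 16. Of kept sites without H3K4me3, it overlapped 66.8% of the 735 with another mark in EBF-/- cells and 75.2% of the 686 others. The class with H3K4me3 thus had the smallest share among kept sites too. Within score ranges, a split made after seeing the data, sites with H3K4me3 had E47-ER at 6 h at 16.4% of lost and 37.8% of kept sites at a score of 11, and at 34.0% of 53 lost and 61.9% of 134 kept sites at scores of 19 to 29.

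Genes near lost sites were then followed in RNA. A site was linked to the gene whose array probe lay nearest to its centre within 100 kb, and since probes need not lie at gene starts this is not the distance to a start. Of the lost sites, 2248 had such a gene, at a median distance of 13016 bases, and they named 1948 genes, of which 1601 were tested with limma among 12444 genes. In RAG1-/- against EBF-/- cells, 279 of the 1601 rose (17.4%, against 20.7% of all genes tested) and 504 fell (31.5%, against 23.5%), with a median log2 change of -0.10, against 0.03 for all genes. Kept-site genes fell at 29.3% and rose at 23.9% of 1251, and gained-site genes fell at 23.2% and rose at 28.3% of 3949. A fall was thus nearly as common near kept sites, and many genes were in several sets. With dim probes left in, the shares that fell were 21.8% of lost-site genes and 11.8% of all genes. The 748 tested genes with a lost site and neither a kept nor a gained one rose at 12.3% and fell at 32.4%. Genes near lost sites with E47-ER at 6 h fell at 37.6% of 583, and the others at 28.0% of 1018. Without EBF-/- replicate 1, 121 lost-site genes rose (7.56%, against 8.57% of all genes) and 254 fell (15.9%, against 10.3%). Without EBF-/- replicate 2, 122 rose (7.62%, against 9.33%) and 277 fell (17.3%, against 11.2%). The remaining EBF-/- sample is then assumed to vary like the other groups.

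**Figure D4:**
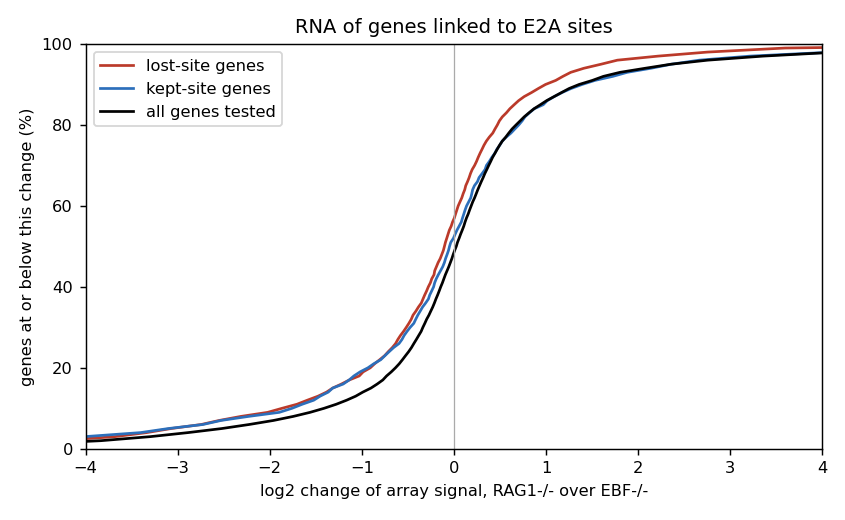
Cumulative share of genes (percent, vertical axis) by log2 change of array signal in RAG1-/- over EBF-/- cells (horizontal axis) for genes linked to lost sites, to kept sites and for all 12444 genes tested. The lost-site line lies to the left of the line of all genes, with medians of -0.10 and 0.03, and runs along the kept-site line below zero.

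Ccr9, the chemokine receptor whose promoter is printed above, fell most among lost-site genes. It had log2 signals of 7.52 and 5.66 in RAG1-/- cells, 15.69 and 15.71 in EBF-/- cells, and 11.08 and 12.20 in E2A-/- cells. The groups did not overlap, and Ccr9 fell by 9.11 on the log2 scale (SE 0.44, limma adjusted p = 0.000716) in RAG1-/- against EBF-/- cells (by 8.03 with normexp background correction). It was also higher in EBF-/- than in E2A-/- cells, by 4.04 (SE 0.45, limma adjusted p = 0.00758). It was the nearest gene of 3 lost sites, at chr9:123605550-123605749, chr9:123618144-123618343 and chr9:123626682-123626881, and also of 1 kept and 1 gained site. E47-ER lay at the first in all 3 lists, at the second at 1 h only and at the third in none.

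Ccl5, a chemokine of T and natural killer cells, had 7.03 and 7.23 in RAG1-/- cells, 13.40 and 13.71 in EBF-/- cells, and 11.07 and 11.37 in E2A-/- cells. It fell by 6.43 (SE 0.17, limma adjusted p = 0.000378), fell by 5.68 with normexp, and had 1 lost site and no other E2A site, 1270 bases from its probe, with E47-ER in E2A-/- cells at both times and no histone mark. Cd247 was not well above background in RAG1-/- cells (4.24 and 4.23) and stood at 9.79 and 9.68 in EBF-/- cells, a difference of at least 32.3-fold (limma adjusted p = 0.00558). It was dim in E2A-/- cells too, at least 19.3-fold below EBF-/- cells (limma adjusted p = 0.0188), a call lost without either EBF-/- sample. Prf1, which encodes perforin, had 5.52 and 5.42 in RAG1-/- cells and 6.97 and 6.87 in EBF-/- cells and fell by 1.45 (limma adjusted p = 0.0405), and it fell by 0.59 with normexp. That call was lost without any 1 of the 4 samples compared. Ptcra, the pre-T receptor alpha chain, had a lost site within 4338 bases of its probe and was not tested because its probes were dim.

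Progenitor genes gave falls as well. Flt3, the receptor for FLT3 ligand, had 7.29 and 6.92 in RAG1-/- cells, 12.51 and 12.87 in EBF-/- cells, and 13.50 and 13.69 in E2A-/- cells. It fell by 5.58 in RAG1-/- against EBF-/- cells (SE 0.10, limma adjusted p = 0.000375), by 4.83 with normexp, and cells of both compared groups differed in whether the culture held its ligand. Hoxa7, a homeobox gene of progenitors, had 10.20 and 10.70 in RAG1-/- cells and 14.66 and 14.64 in EBF-/- cells, and it fell by 4.21 (SE 0.16, limma adjusted p = 0.00045). Lmo2, a partner of blood progenitor factors, had 9.06 and 7.95 in RAG1-/- cells and 10.23 and 10.21 in EBF-/- cells, and fell by 1.71 (limma adjusted p = 0.014), a call lost without EBF-/- replicate 1. Beside its 2 lost sites, 76831 and 86827 bases from its probe, Lmo2 had 6 gained sites. All 3 listed progenitor genes with a lost site thus fell, as did 10 of the 13 tested genes of that list, lost site or not.

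Runx3, a Runt-domain factor of cytotoxic T and natural killer cells, was among the genes with the most lost sites, 5, against 1 kept and 1 gained. Its signals were 8.22 and 8.54 in RAG1-/- cells, 10.20 and 10.30 in EBF-/- cells, and 9.40 and 9.74 in E2A-/- cells, and it fell by 1.88 in RAG1-/- against EBF-/- cells (SE 0.20, limma adjusted p = 0.00313). Its other probe fell by less, 0.28. Of the 5 lost sites of Runx3, all had E47-ER at 1 h and 4 at 6 h in E2A-/- cells. They lay 16310 to 95673 bases from the gene's nearest probe. Lrpap1, a chaperone of lipoprotein receptors, also had 5 lost sites and fell by 1.00 (SE 0.07, limma adjusted p = 0.00156). Its lost sites lay 43741 to 85322 bases from its nearest probe. C130026L21Rik had 5 lost sites too and was not tested. Cbfa2t3, with 4 lost and 4 kept sites, had 13.07 and 12.18 in RAG1-/- cells and 12.66 and 12.70 in EBF-/- cells, so the RAG1-/- samples lay on either side of the EBF-/- samples.

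The other genes among the 12 with the largest fall were dim in 1 or both RAG1-/- samples, except Tnni1. Nrp2, a neuropilin receptor, had 4.52 and 6.43 in RAG1-/- cells and 12.07 and 12.28 in EBF-/- cells and fell by 6.72 (limma adjusted p = 0.00234). Itgax, the integrin CD11c of dendritic cells, had 4.29 and 4.68 in RAG1-/- cells and 10.93 and 11.14 in EBF-/- cells, and it fell by 6.57 (limma adjusted p = 0.00111). In the dendritic cell list, 4 of 7 genes had a lost site (Itgax, Siglech, Bst2 and Cd83), against 1601 of all 12444 genes tested. All 4 fell, beside 6 of 7 for the list. The mean over that list was 8.76 and 8.21 in RAG1-/- cells and 11.14 and 11.24 in EBF-/- cells, and the part of dendritic cells in the culture was not tested. Nav1, a microtubule regulator, was at least 53.2-fold lower in RAG1-/- cells (limma adjusted p = 0.000422). The lost site of Nav1 lay 96732 bases from its probe. Tnni1, a troponin, and Enah, an actin regulator, fell by 6.11 and 5.64 (limma adjusted p = 0.000717 and 0.000436). Fyb, a T cell adaptor, had 4.11 and 7.18 in RAG1-/- cells, a wide spread, and 11.27 and 11.24 in EBF-/- cells, and fell by 5.63 (SE 0.83, limma adjusted p = 0.00773). Slc27a2 and Alpk3 were at least 19.5-fold and 22.9-fold lower in RAG1-/- cells, and the Alpk3 call was lost without RAG1-/- replicate 1 or EBF-/- replicate 1. Nrp2, Enah and Fyb were not well above background in RAG1-/- replicate 1, nor was Itgax in RAG1-/- replicate 2, so the size of these falls rests on dim spots. With normexp, which adds an offset of 50 to every signal, Nrp2 fell by 4.93, Itgax fell by 3.95, Fyb fell by 3.8 and Enah fell by 3.27, and all 4 passed the test. The genes given as bounds also moved less with normexp: Nav1 fell by 3.57, Cd247 fell by 2.90, Slc27a2 fell by 2.50 and Alpk3 fell by 2.41 on the log2 scale.

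**Figure D5:**
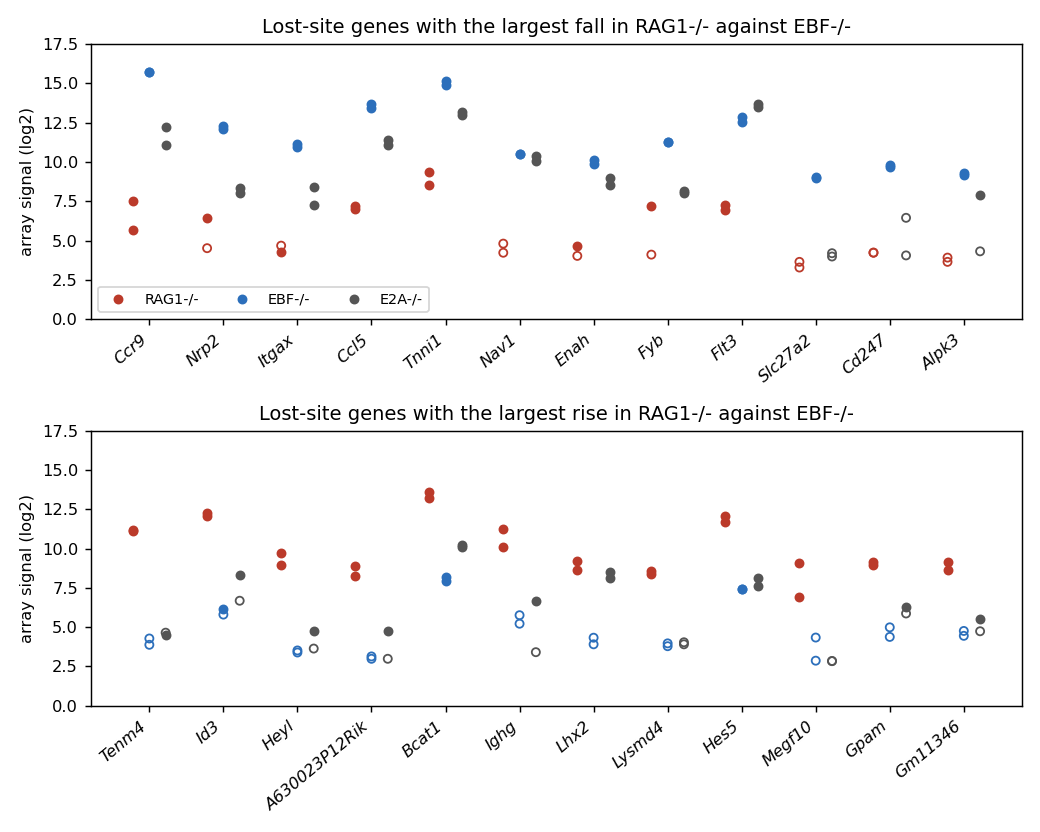
Array signal (log2, vertical axis) of the 12 lost-site genes with the largest fall (top) and the 12 with the largest rise (bottom) in RAG1-/- against EBF-/- cells, with 1 point per sample. RAG1-/- samples are red, EBF-/- samples blue and E2A-/- samples grey, and open points are not well above background. Both RAG1-/- samples lie below both EBF-/- samples for every gene in the top panel and above them in the bottom panel, and the genes were chosen by a rule that asked for this.

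Of the Notch and E protein list, 10 of 15 genes were nearest to a lost site, 7 to a kept and 13 to a gained site. Of all 12444 genes tested, 1601 were nearest to a lost site. The 10 listed genes with a lost site moved in both directions: 5 rose, 3 fell and 2 did not pass the test. Notch1, the receptor that drives T cell commitment, had 9.07 and 8.99 in RAG1-/- cells and 11.49 and 11.56 in EBF-/- cells, and fell by 2.49 (SE 0.10, limma adjusted p = 0.000454). Notch3 was at least 4.69-fold lower in RAG1-/- cells (limma adjusted p = 0.0271), a call lost without any 1 of the 4 samples compared, and with normexp it fell by 0.82. The Notch target genes Hes5 and Hes1 went up. Each had 1 lost site, beside 2 gained sites for Hes5 and 9 for Hes1. Hes5 had 11.66 and 12.05 in RAG1-/- cells and 7.40 and 7.44 in EBF-/- cells, a rise of 4.43 (SE 0.19, limma adjusted p = 0.000565), or 3.71 with normexp. Hes1, dim in EBF-/- cells, was at least 4.77-fold higher in RAG1-/- cells (limma adjusted p = 0.00763), a call lost without either RAG1-/- sample, and with normexp it rose by 1.64. Id3, an inhibitor of E proteins, had 12.09 and 12.25 in RAG1-/- cells and 5.80 and 6.17 in EBF-/- cells, a rise of 6.21 (SE 0.52, limma adjusted p = 0.00194). It was not well above background in EBF-/- replicate 1, and with normexp the rise was 4.78. It had 1 lost, 1 kept and 4 gained sites.

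All 3 E protein genes were nearest to lost sites. Lost and gained counts were 1 and 1 for Tcf3, 1 and 4 for Tcf4, and 3 and 3 for Tcf12. The lost site of Tcf4 lay 90509 bases from its probe. Tcf3 rose by 1.5 in RAG1-/- against EBF-/- cells (limma adjusted p = 0.0468), a call lost without RAG1-/- replicate 1 or either EBF-/- sample. Tcf4 had 13.08 and 13 in RAG1-/- cells and 12.48 and 12.21 in EBF-/- cells and rose by 0.70 (SE 0.11, limma adjusted p = 0.0096). Without EBF-/- replicate 2 its call was lost. Tcf12 had 13.05 and 13.41 in RAG1-/- cells and 12.97 and 12.85 in EBF-/- cells, with a limma adjusted p of 0.053. Its 3 lost sites, at chr9:71654907-71655106, chr9:71666666-71666865 and chr9:71681635-71681834, each had a score of 15, H3K4me3 in EBF-/- cells only and no E47-ER in any list. Gfi1, a transcriptional repressor of blood cells, had a lost site only 35 bases from a RAG1-/- E2A peak and did not pass the test (limma adjusted p = 0.0965).

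Of the B lineage list, 4 of 20 genes had a lost site, and 18 had a gained one. Over all 12444 genes tested these counts were 1601 and 3949. Among the 4, Irf8 had 2 lost, 1 kept and 8 gained sites. Irf8 had 15.54 and 15.11 in RAG1-/- cells and 14.33 and 14.15 in EBF-/- cells and rose by 1.09 (limma adjusted p = 0.0123), though not without EBF-/- replicate 2. Cd72, a B cell surface lectin, rose by 1.20 (limma adjusted p = 0.0318), a call lost without either EBF-/- sample. Ikzf1 had 13.04 and 11.32 in RAG1-/- cells and 13.07 and 13.03 in EBF-/- cells, and Myb 15.62 and 15.20 against 15.70 and 15.53, and neither passed the test. Ebf1, Rag1, Foxo1 and Pax5 were nearest to no lost and no kept site and to 6, 3, 2 and 1 gained sites. Pax5, the factor that fixes B cell identity, had 14.23 and 14.00 in RAG1-/- cells and 7.04 and 6.55 in EBF-/- cells.

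Rises also occurred outside these lists, often at genes with more gained than lost sites. Lost and gained counts were 1 and 4 for Tenm4, 1 and 3 for Bcat1 and Gpam, and 1 and 5 for Megf10. They were 2 and 6 for Gm11346, 1 and 2 for Heyl, and 1 and 1 for Ighg and Lhx2. A630023P12Rik and Lysmd4 had 1 lost and 0 gained. The lost site of Bcat1 lay 95799 bases from its probe. Tenm4, a teneurin, was at least 42.8-fold higher in RAG1-/- cells (limma adjusted p = 0.000509), and its lost site carried H3K4me2, H3K4me3 and acetylation in both genotypes and CTCF in RAG1-/- cells. Bcat1, a branched-chain amino acid transaminase, had 13.24 and 13.57 in RAG1-/- cells and 7.93 and 8.19 in EBF-/- cells, a rise of 5.34 (SE 0.17, limma adjusted p = 0.000415), or 4.62 with normexp. With normexp Tenm4 rose by 4.35 and the other genes given as bounds here by 1.77 (Lysmd4) to 3.45 (Ighg) on the log2 scale. Heyl, a relative of the Hes genes, was at least 12.1-fold higher (limma adjusted p = 0.00254). Lhx2, a LIM homeobox gene, was dim in EBF-/- cells only: it was at least 8.96-fold higher in RAG1-/- cells and at least 5.99-fold lower in EBF-/- than in E2A-/- cells (limma adjusted p = 0.00126 and 0.00388). Ighg, the array's name for an immunoglobulin heavy chain constant region whose near-identical copies it may not tell apart, was at least 30.1-fold higher (limma adjusted p = 0.0202), a call lost without RAG1-/- replicate 1 or either EBF-/- sample. A630023P12Rik, Lysmd4, Gpam, Gm11346 and Megf10 were at least 7.13, 6.75, 9.83, 8.95 and 4.75-fold higher. The Megf10 call was lost without EBF-/- replicate 1 or RAG1-/- replicate 2.

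Comparing EBF-/- with E2A-/- cells, both pre-pro-B cultures of the same kind, sets cells that lack EBF1 against cells that lack E2A. The parts of the 2 deletions in a difference cannot be told apart, so none is that of E2A alone. The comparison shares the EBF-/- samples with the one above. Of the 1601 genes, 245 rose (15.3%, against 12.8% of all genes tested) and 186 fell (11.6%, against 11.3%). Among kept-site genes 17.75% rose and 11.2% fell. Genes near lost sites with E47-ER at 6 h rose at 19.2% of 583 and the others at 13.1% of 1018. These counts depended on single samples and were much lower without any 1 of the EBF-/- or E2A-/- samples. The share of lost-site genes that rose then barely exceeded that of all genes tested. Without RAG1-/- replicate 1 or 2, which enter through the shared spread, 398 and 396 rose and 336 and 338 fell. Pdgfa had 12.59 and 12.47 in EBF-/- cells and 9.88 and 9.88 in E2A-/- cells and rose by 2.65 (SE 0.11, limma adjusted p = 0.00211). It fell by 4.45 in RAG1-/- against EBF-/- cells, with 8.09 and 8.08 in RAG1-/- cells (SE 0.11, limma adjusted p = 0.000378). Slc27a2 was at least 12-fold higher in EBF-/- than in E2A-/- cells (limma adjusted p = 0.00408), a call lost without either EBF-/- sample, and with normexp it rose by 2.37. In this comparison normexp also gave a smaller rise of Cd247, 2.64, and Lhx2 fell by 1.63. Ccl5 rose by 2.34 (SE 0.17, limma adjusted p = 0.0035) and H1f1 by 1.40 (SE 0.11, limma adjusted p = 0.00388), and the H1f1 call was lost without EBF-/- replicate 2. Bcat1, by contrast, fell by 2.09 (SE 0.17, limma adjusted p = 0.00425), with 7.93 and 8.19 in EBF-/- cells and 10.22 and 10.10 in E2A-/- cells.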

How the data were processed

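RNA of 6 samples was hybridised to 4 two-colour Agilent arrays and peaks came from 24 ChIP-seq libraries, 1 each. The deposited intensity values are Agilent Feature Extraction 9.5.3.1 processed signals, background-subtracted and dye-normalized per the file headers. Peaks carry a deposited whole-number score of unstated meaning and mm8 positions, made with HOMER per the submitters' processing notes, and the sources used here give no read depth. Samples that share an array were taken from their own dye channels, and between 40.9% and 61.8% of 43379 spots per sample were well above background. The number of arrays limits the precision.

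Signals (floor 1) were put on a log2 scale and quantile normalized, and spots were averaged. Of 41099 probes, 22133 passed as well above background in both samples of 1 or more groups, and the brightest kept probe stood for each of 12444 genes. limma 3.58.1 (R 4.3.3) fitted group and dye with array as a random block (correlation -0.044, estimated without dye), on 2 residual degrees of freedom plus 2.49 from the prior, and p-values were adjusted by Benjamini-Hochberg at 0.05. Bounds ("at least") set the bright group's mean against, per dim sample, the higher of its own signal and the lowest signal well above background. Probe names were updated through RefSeq genes of GRCm38.p6, which matched 23364 probes by accession, 6678 by symbol and 2887 by synonym, while 812 kept the file's name, 119 had several and 7314 had none.

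Overlap means 1 base or more. Genes named are the 12 with the largest fall and rise in RAG1-/- against EBF-/- cells among called lost-site genes without overlap between samples, listed lineage genes with a lost site, the 5 genes with most lost sites, the genes nearest to the 10 highest-scoring sites, and the factors studied. Siglech, Bst2 and Cd83 were named after their results were seen. The sites, lists and tests were chosen with earlier results of these data known. Replicate numbers did not pair samples (correlations of deviations -0.398, 0.166 and 0.012). Alternatives covered the rule's distance, score, overlap, linking, normalization, blocks and each sample left out.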

Additional observations from a re-analysis of the deposited data

How the results depend on the processing

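Asking for no RAG1-/- E2A peak within 1000 bases, dropping the mock filter or allowing partial cover by a RAG1-/- peak kept the number of lost sites within 2200 to 2567, and a score at or above the list median (14) left 999. With that score, H3K4me2 overlapped 25% of lost sites in RAG1-/- cells and E47-ER at 6 h 47.6%, and H3K4me1 in EBF-/- cells 8.61%. Counting a peak within 1000 bases of the centre gave 12.3% for H3K4me1 and 62.8% for H3K4me2 in EBF-/- cells, 48.2% for H3K4me2 in RAG1-/- cells and 43.6% for E47-ER. With the centre inside a peak these were 5.98%, 36.1%, 26.6% and 32.5%. At lost sites without H3K4me3, a choice made after seeing the data, they were 11%, 43.8%, 21.0% and 48.7%.

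For RAG1-/- against EBF-/- cells, the share of lost-site genes that fell exceeded that of all genes under each of 18 alternatives, and the share that rose did so under 1, without the filter on dim probes. The counts that rose and fell were 103 and 220 with the higher score, 168 and 329 with probes within 20 kb, 864 and 1410 with every gene within 100 kb, and 152 and 306 without H3K4me3. Median scaling left 332 that fell. Leaving out 1 sample gave 121 to 328 that rose and 254 to 551 that fell. For EBF-/- against E2A-/- cells, the same member and link choices gave 124 and 76, 155 and 109, 670 and 569, and 148 and 109. Median scaling left 135 that rose, and no filter on dim probes left 161 and 114. Leaving out 1 sample gave 34 to 398 that rose and 31 to 338 that fell. The share that rose exceeded that of all genes under each of the 18 alternatives here too. The excess was under 0.2 percentage points in every fit that left out an EBF-/- or E2A-/- sample, so it was nearly gone there.

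The replicate block, whose numbers share no stated source, gave 392 that rose and 323 that fell in EBF-/- against E2A-/- cells, and 364 and 616 in RAG1-/- against EBF-/- cells. Exchanging the EBF-/- numbers gave 178 and 120 in the first of these. None of the named genes that passed the test changed sign under any fit, 4 of 9 and 9 of 28 named genes that did not pass it in RAG1-/- against EBF-/- and in EBF-/- against E2A-/- cells did so under at least 1, and 13 of 42 calls in RAG1-/- against EBF-/- cells and 15 of 23 in EBF-/- against E2A-/- cells were lost under at least 1. Probes near background limit the folds of dim genes to bounds, and with 2 samples per group and 1 library per peak list, the causes of these shifts were not tested.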

Other observations

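Genes near lost sites without H3K4me3 differed by where H3K4me2 was listed, a split made after the data were seen. Of 210 tested genes near such sites with H3K4me2 in RAG1-/- cells, 20 rose (9.52%) and 94 fell (44.8%) in RAG1-/- against EBF-/- cells, with a median log2 change of -0.31. Of 231 near sites with H3K4me2 in EBF-/- cells only, 48 rose (20.8%) and 72 fell (31.2%), with a median of -0.09. A gene can belong to both sets, and the difference between them was not tested. Among all 12444 genes tested, 20.7% rose and 23.5% fell, so the share that rose in the second set was close to that of all genes.

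In the list of natural killer and innate lymphoid genes, all 11 tested genes fell in RAG1-/- against EBF-/- cells, and Prf1 alone of the list was nearest to a lost site. The list's mean log2 signal was 6.05 and 6.25 in RAG1-/- cells and 10.70 and 10.82 in EBF-/- cells. Of the T lineage list, 8 of 13 tested genes fell and 2 rose. Rag1, the gene disrupted in RAG1-/- cells, was 1 of the 2 that rose, a call lost without any 1 of the samples compared. Of the 18 genes of the T lineage list, Cd247 and Ptcra had a lost site and 10 had a gained one. In the myeloid list, Cebpa, a factor of granulocyte development, was the 1 gene of 13 with a lost site, and it fell.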
